A study of Mus musculus with 24 samples.

Results

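Polycomb complexes were followed through the RNA of 10 subunit genes during neural differentiation of mouse embryonic stem cells (mESCs) with and without SmcHD1, a non-canonical SMC protein of the inactive X chromosome. The genes were picked by name: Ezh1, Ezh2, Eed, Suz12, Jarid2 and Mtf2 of Polycomb repressive complex 2 (PRC2), and Rnf2, Ring1, Cbx7 and Bmi1 of Polycomb repressive complex 1 (PRC1). Each of the 10 had an entry of its own among 23119 genes listed, none shared its locus with another entry, and all 10 were among the 12105 genes tested. Poly(A) RNA came from JB4/EI7HZ2, a female line from a cross of a JF1 mother with a B6 father, with drug-resistance genes on both X chromosomes (CAGzeo at Hprt on the JF1 X, IRESneo at Eif2s3x on the B6 X). The WT groups were the parental line. The KO groups were a SmcHD1-mutant derivative made with Cas9 and a guide against the part that codes for the ATPase domain. Each genotype was represented by 1 line, and what the mutation did cannot be told apart from what set the lines apart otherwise. The study describes the replicates as independent experiments. Both lines were sampled as mESCs (serum with 2i and LIF, with G418 and Zeocin to hold on to both X chromosomes), after 7 and 9 days of differentiation to early neurectoderm, and as neural stem cells (NSCs) maintained in FGF2 and EGF. The NSCs were not grown on from the day 9 cells but came from mESCs by a separate protocol in other media (again with both drugs), so differences between day 9 and NSCs cannot be told apart from those between protocols. There were 3 libraries per stage and genotype, 24 in all, in 8 groups.

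PRC2 places methyl groups on a lysine of histone H3 (H3K27), a mark of silent developmental genes and of the inactive X. Its catalytic subunit is Ezh2 or the related Ezh1, its core is completed by Eed and Suz12, and accessory subunits such as Mtf2 and Jarid2 set 2 alternative forms of the complex and help it to find unmethylated CpG-rich DNA. PRC1 attaches ubiquitin to histone H2A through Rnf2 (RING1B) or Ring1 (RING1A). Canonical PRC1 also holds a CBX protein that reads the PRC2 mark and a PCGF protein such as Bmi1. Cbx7 is known as the main CBX protein of mESCs, and Bmi1 is known for its part in the self-renewal of neural stem cells and in the silencing of the cell cycle inhibitor Cdkn2a.

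The promoters of 6 members are shown because these genes took opposite courses or form paralogue pairs: Cbx7 and Rnf2 fell, Bmi1 and Ring1 rose, and of the pair Ezh2 and Ezh1 only Ezh2 rose by day 7. Each line is the 150 bases before a RefSeq start (GRCm38.p6), 5′ to 3′ on the strand of the gene, with CpG dinucleotides in capitals. Each was found exactly 1 time in mm9, the build of the files, on the same strand. The mm9 positions are chr15:79763077-79763226 for Cbx7 (minus strand), chr2:18598495-18598644 for Bmi1 (plus), chr17:34161626-34161775 for Ring1 (minus), chr1:153348122-153348271 for Rnf2 (minus), chr6:47545030-47545179 for Ezh2 (minus) and chr11:101087778-101087927 for Ezh1 (minus).
Cbx7: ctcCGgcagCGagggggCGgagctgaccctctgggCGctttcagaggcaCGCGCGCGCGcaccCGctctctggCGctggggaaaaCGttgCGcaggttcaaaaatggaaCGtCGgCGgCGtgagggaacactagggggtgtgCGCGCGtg
Bmi1: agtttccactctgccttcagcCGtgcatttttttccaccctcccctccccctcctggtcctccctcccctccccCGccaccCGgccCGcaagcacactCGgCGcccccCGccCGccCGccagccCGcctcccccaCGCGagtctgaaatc
Ring1: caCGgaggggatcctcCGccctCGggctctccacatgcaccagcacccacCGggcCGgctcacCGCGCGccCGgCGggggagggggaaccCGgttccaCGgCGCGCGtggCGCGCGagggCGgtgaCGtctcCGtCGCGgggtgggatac
Rnf2: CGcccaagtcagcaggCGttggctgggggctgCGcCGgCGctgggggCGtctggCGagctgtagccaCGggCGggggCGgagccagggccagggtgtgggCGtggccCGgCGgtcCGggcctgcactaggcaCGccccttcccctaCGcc
Ezh2: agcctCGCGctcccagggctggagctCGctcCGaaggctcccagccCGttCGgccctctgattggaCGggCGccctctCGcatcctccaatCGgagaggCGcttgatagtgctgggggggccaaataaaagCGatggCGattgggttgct
Ezh1: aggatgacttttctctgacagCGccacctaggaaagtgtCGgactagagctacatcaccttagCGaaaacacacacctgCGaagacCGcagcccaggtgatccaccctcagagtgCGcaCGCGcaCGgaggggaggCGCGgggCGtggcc
RefSeq gave 12 starts for the 10 members, a pair each for Jarid2 and Mtf2. In windows of 300 bases (250 before to 50 after the start), the members held 17 to 41 CpG dinucleotides, with 33 for Cbx7, 23 for Bmi1, 37 for Ring1, 30 for Rnf2, 31 for Ezh2 and 23 for Ezh1. The exception was the downstream start of Mtf2, with 2. The median of 32851 RefSeq promoters was 7, and 31.4% of them had at least the 17 of Eed. Genes that rose and genes that fell thus both had CpG-rich starts. One of 4 E2F words (TTTCCCGC, TTTCGCGC, TTTGCCGC and TTTGGCGC, either strand) lay in the window of Ezh2 (its first base at position 4 from the start) and of Suz12 (at position -219), and no other member window held one. Such a word lay in 2.26% of all promoters of this length.

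Relative read numbers lay between 0.811 and 1.15 of the median library, and summed FPKM (the number of fragments of a gene scaled by transcript length and library size) between 504660 and 802938. Smchd1 was lower in every KO library (1.824 to 4.399 FPKM) than in every WT library (12.96 to 26.41 FPKM), and KO libraries still held reads of it. The summed FPKM of 6 pluripotency markers lay between 6257 and 10078 in the 6 mESC libraries and between 1.92 and 6.61 in the 6 NSC libraries, and 6 neural stem markers summed to 403 to 477 in mESCs and 4172 to 7231 in NSCs. WT NSC replicate 1 stood apart: 508 tested genes (4.2%) lay over 2-fold outside the other WT NSC libraries, against 20 to 207 genes in the other 23 libraries. Its 10 proliferation genes (all 10 tested) summed to 1636 FPKM against 847.8 and 1072 in replicates 2 and 3. Without it the same members were called, in the same direction, for WT NSCs against WT mESCs (2 higher and 8 lower) and against WT day 9 (1 higher and 8 lower), and what it changed in KO against WT is given with those results.

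**Figure D1:**
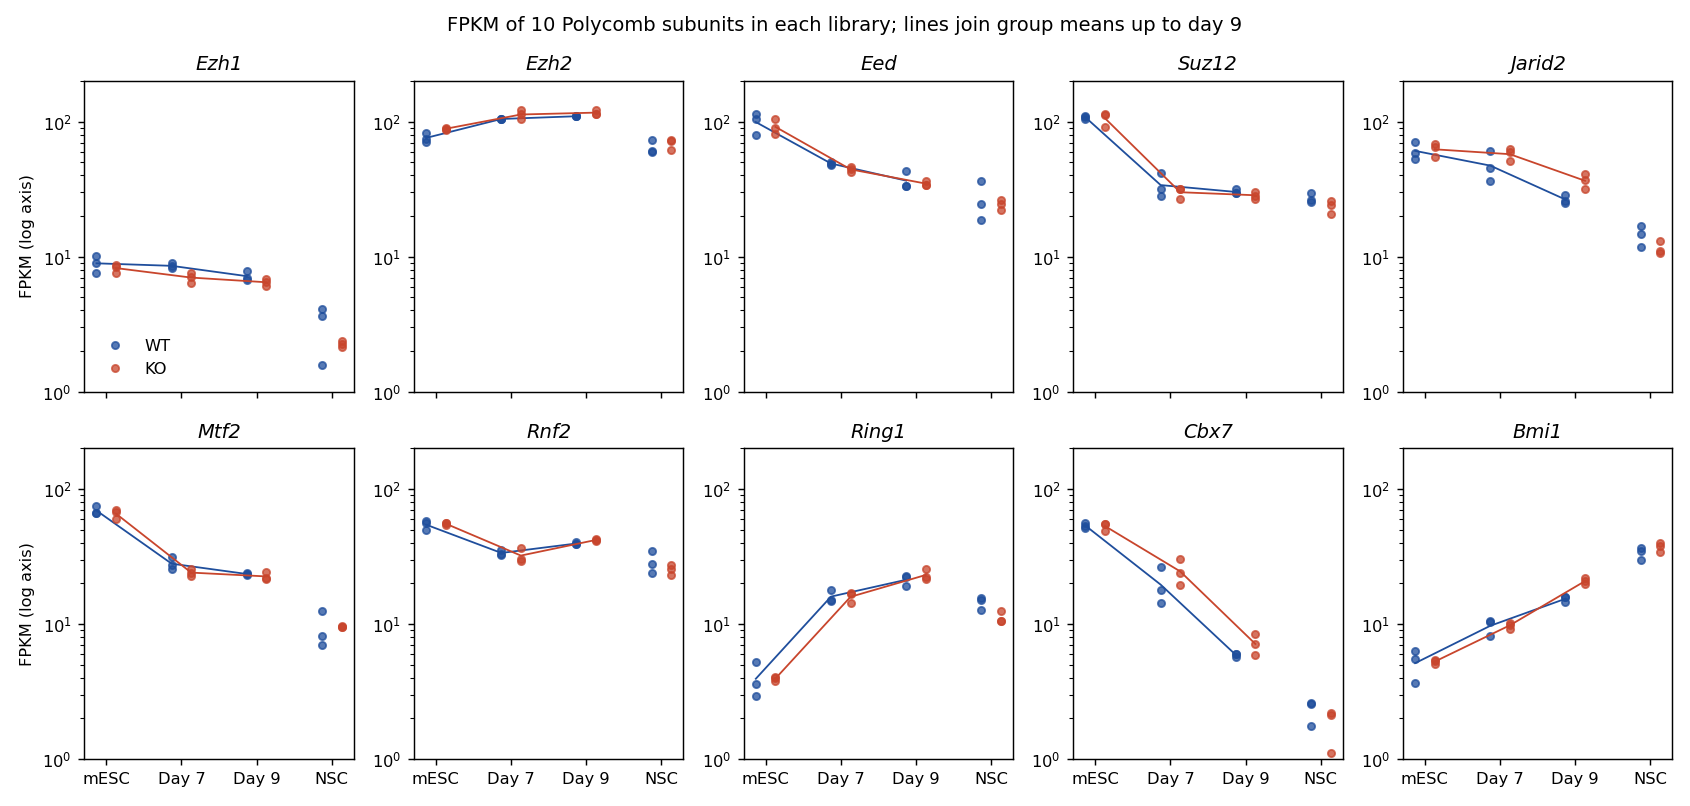
FPKM of the 10 subunits in each of the 24 libraries (points; WT blue, KO red; 1 panel per gene, log axis) by stage, with lines through the group means up to day 9, since NSCs came from another protocol. Cbx7 ran from above 48 FPKM in every mESC library to below 3 FPKM in every NSC library, Bmi1 ran the other way, and Ring1 stepped up between mESCs and day 7. WT and KO points lie close together throughout.

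Levels along WT differentiation were compared with WT mESCs. Under limma on log2(FPKM + 1), adjusted over 12105 genes, 3 members were called higher and 6 lower at day 7 (all tested genes: 29.1% higher, 30.2% lower). At day 9 it was again 3 higher and 6 lower (36.4% and 35.1%), and in NSCs 2 higher and 8 lower (36.9% and 38.3%). The median log2 difference of the 10 members was -0.53, -0.81 and -1.61, against -0.02, 0.02 and -0.01 over all tested genes. Scaling each library to the same sum of FPKM moved the median of all genes to 0.18, 0.34 and 0.36, because the sums fell with differentiation, and small differences are to be read against that shift. Fewer cells of a type and less RNA per cell cannot be told apart in these bulk samples.

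Of the catalytic subunits of PRC2, Ezh2 was the abundant one and the member with the narrowest range. Its WT libraries had 70.64, 82.04 and 74.69 FPKM in mESCs, 105.1, 104.7 and 104.4 at day 7, 109.7, 110 and 109.4 by day 9, and 73.4, 61.03 and 59.65 in NSCs. Every day 7 and day 9 library lay above every mESC library, and the NSC libraries overlapped the mESC libraries. Ezh2 rose at day 7 (log2 difference 0.46 ± 0.09 SE, adjusted p = 0.000135) and at day 9 (0.53 ± 0.09, adjusted p = 1.84e-05). Its lower NSC level (-0.23 ± 0.09, adjusted p = 0.0255) turned to 0.22 (adjusted p = 0.0404) when libraries were scaled to the same sum, and the call was lost without WT mESC replicate 2 (adjusted p = 0.12) or WT NSC replicate 2 (0.0903) or 3 (0.12), so no direction can be given for it. Across the 8 groups its means spanned 1.8-fold, a range that 72.1% of tested genes matched or exceeded.

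Ezh1, the paralogue with weaker methyltransferase activity, was far less abundant. WT libraries had 10.19, 7.593 and 8.983 FPKM in mESCs, 8.169, 8.528 and 8.946 at day 7, 6.694, 6.985 and 7.825 by day 9, and 1.57, 3.623 and 4.07 in NSCs. The NSC libraries were below all others, the day 9 libraries lay below those of day 7 without overlap, and the mESC libraries overlapped both. Ezh1 fell in NSCs (-1.33 ± 0.17, adjusted p = 3.82e-07, and -1.03, adjusted p = 1.22e-07, without WT NSC replicate 1). Its day 7 and day 9 differences were -0.05 (adjusted p = 0.829) and -0.27 (adjusted p = 0.155), and both changed sign under the scaling to the same sum. Across groups, neighbouring levels overlapped except between KO day 9 and WT NSCs.

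The core subunits Eed, which binds the methylated lysine, and Suz12, the scaffold, were highest in mESCs and fell early. Eed had 79.24, 114 and 104.7 FPKM in WT mESCs, 50.2, 48.98 and 47.77 at day 7, 43.15, 33.13 and 33.44 by day 9, and 36.1, 18.84 and 24.71 in NSCs. Suz12 had 108, 109.7 and 105.1 FPKM in WT mESCs, 41.82, 31.57 and 28.3 at day 7, 31.48, 29.5 and 29.47 by day 9, and 29.79, 25.51 and 26.09 in NSCs. Every mESC library was above every later library for both genes. Eed fell by 0.99 ± 0.17 on the log2 scale at day 7, by 1.41 at day 9 and by 1.90 in NSCs (adjusted p = 2.63e-05, 1.23e-07 and 8.62e-10). Suz12 fell by 1.66 ± 0.12, 1.80 and 1.95 (adjusted p = 1.56e-10, 1.73e-11 and 2.78e-12). Most of the drop of Suz12 had taken place by day 7: its day 7, day 9 and NSC levels overlapped from neighbour to neighbour, and neither of its later differences (day 9 from day 7, NSCs from day 9) passed the test.

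The accessory subunits followed different courses. Mtf2, the Polycomb-like subunit that binds CpG-rich DNA, had 66.47, 66.8 and 74.22 FPKM in WT mESCs, 31.12, 27.22 and 25.52 at day 7, 23.26, 23.02 and 24.03 by day 9, and 12.57, 8.18 and 6.979 in NSCs. It fell by 1.28 ± 0.13 at day 7, 1.52 at day 9 and 2.81 in NSCs (adjusted p = 3.25e-08, 1.15e-09 and 2.3e-14), a fall of 7.02-fold to NSCs on the log2(FPKM + 1) scale. Jarid2, the subunit of the other form of PRC2, held on longer. Its WT libraries had 53.28, 70.82 and 58.11 FPKM in mESCs, 60.15, 45.09 and 36.49 at day 7, 28.46, 25.82 and 25.14 by day 9, and 11.78, 16.85 and 14.67 in NSCs. Day 7 overlapped mESCs, and day 9 and NSCs lay below both. Jarid2 fell by 1.16 ± 0.16 at day 9 and 2.00 in NSCs (adjusted p = 1.09e-06 and 1.62e-10). Its day 7 call (-0.37, adjusted p = 0.0461) was lost without the filter on low values (adjusted p = 0.061), with libraries scaled to the same sum (0.542), in a fit of the compared groups only (0.124), and without WT mESC replicate 2 (0.205), WT mESC replicate 3 (0.0683), WT day 7 replicate 2 (0.104) or WT day 7 replicate 3 (0.288).

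The E3 ligases of PRC1 moved in opposite directions. Rnf2 had 49.51, 55.59 and 57.97 FPKM in WT mESCs, 35.11, 33.13 and 32.46 at day 7, 38.8, 39.03 and 40.55 by day 9, and 34.42, 27.93 and 23.75 in NSCs. Ring1 had 2.934, 5.255 and 3.591 FPKM in WT mESCs, 14.83, 17.92 and 15.06 at day 7, 22.54, 22.11 and 19.1 by day 9, and 12.65, 15.11 and 15.52 in NSCs. No mESC library of either gene overlapped a later library. Ring1 rose by 1.80 ± 0.14, 2.20 and 1.67 on the log2 scale at day 7, day 9 and in NSCs (adjusted p = 3.24e-10, 6e-12 and 3.75e-10). Rnf2 fell by 0.68 ± 0.11, 0.45 and 0.91 (adjusted p = 1.59e-05, 0.000905 and 1.23e-07). The day 9 call of Rnf2 was lost under the scaling to the same sum (-0.08, adjusted p = 0.538).

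In NSCs, Cbx7 was the member furthest below its mESC level and Bmi1 the one furthest above it. At day 7 Suz12 had fallen further than Cbx7, and at day 7 and day 9 Ring1 had risen further than Bmi1. Cbx7 had 55.99, 52.82 and 51.49 FPKM in WT mESCs, 26.58, 17.7 and 14.38 at day 7, 5.984, 5.735 and 5.97 by day 9, and 1.765, 2.588 and 2.56 in NSCs. No pair of stages overlapped. The differences from mESCs were -1.45 ± 0.19, -2.98 and -4.05 (adjusted p = 1.22e-06, 8.26e-12 and 2.56e-14). Its means spanned 19.7-fold over the 8 groups, and 4.92% of tested genes had a range at least as wide. Bmi1 had 3.621, 5.495 and 6.256 FPKM in WT mESCs, 8.167, 10.57 and 10.34 at day 7, 15.76, 15.87 and 14.47 by day 9, and 36.52, 34.53 and 29.89 in NSCs. Its stages did not overlap either. Bmi1 rose by 0.82 ± 0.13, 1.44 and 2.52 (adjusted p = 1.49e-05, 2.41e-09 and 1.34e-13).

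WT day 9 was also compared with day 7, and NSCs with day 9. From day 7 to day 9, Bmi1 (0.62, adjusted p = 0.000935) and Ring1 (0.40, adjusted p = 0.0321) were called higher and Jarid2 (-0.79, adjusted p = 0.000601) and Cbx7 (-1.53, adjusted p = 2.32e-06) lower, 2 and 2 of 10 (all tested genes: 18.5% higher, 15.3% lower). The Ring1 call was lost without WT day 7 replicate 1 (adjusted p = 0.103) or 3 (0.0952), or WT day 9 replicate 1 (0.106) or 2 (0.0957). From day 9 to NSCs only Bmi1 was called higher (1.08, adjusted p = 4.08e-07), and 8 members lower (24.8% and 30.3% of all tested genes). The exception, Suz12, changed by -0.15 (adjusted p = 0.309). Falls between day 9 and NSCs ranged from 0.46 (Rnf2) and 0.49 (Eed) to 1.29 (Mtf2), and that of Eed (adjusted p = 0.0166) was lost in the fit of the compared groups only (0.13) and without WT day 9 replicate 1 (0.101) or WT NSC replicate 2 (0.152). The call of Rnf2 (adjusted p = 0.00106) was lost with a replicate block in the fit of the compared groups only (0.0572).

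The KO line went through the same stages, and its comparisons have no library in common with those of WT. Against KO mESCs, 3 members were called higher and 5 lower at day 7 (all tested genes: 29.5% and 31.8%), 3 and 6 at day 9 (35.7% and 35.6%) and 2 and 8 in NSCs (37.7% and 38.2%). Ring1 and Bmi1 rose at each stage, with log2 differences of 1.77, 2.28 and 1.30 for Ring1 and 0.78, 1.80 and 2.61 for Bmi1 at day 7, day 9 and in NSCs. The differences were -1.10, -2.75 and -4.29 for Cbx7, -1.78, -1.85 and -2.12 for Suz12, and -1.41, -1.50 and -2.65 for Mtf2. The fall of Jarid2 at day 7 was not called (-0.12, adjusted p = 0.535), nor were those of Ezh1 at day 7 (-0.21, adjusted p = 0.304) and day 9 (-0.31, adjusted p = 0.114). Ezh2 rose at day 7 (0.35) and day 9 (0.39), and its NSC difference (-0.36, adjusted p = 0.000905) changed sign under the scaling to the same sum (0.15, adjusted p = 0.138). The day 9 call of Rnf2 (-0.39, adjusted p = 0.00288) was lost under that scaling (-0.11, adjusted p = 0.372). From KO day 7 to day 9, 3 members were called higher (Rnf2, Ring1, Bmi1) and 2 lower (Jarid2, Cbx7; all tested genes: 17.2% and 13.4%), and from KO day 9 to NSCs 1 higher (Bmi1) and 8 lower (27.2% and 32.4%). The Rnf2 call between day 7 and day 9 (0.38, adjusted p = 0.0107) was lost without KO day 7 replicate 3 (0.0586), and the Eed call between day 9 and NSCs (-0.50, adjusted p = 0.013) without KO NSC replicate 2 (0.0535) and under the scaling (0.167). In that comparison Suz12 was called without KO NSC replicate 1 (-0.34, adjusted p = 0.0405; -0.27 and 0.062 with it).

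KO was then compared with WT within each stage, which asks whether loss of SmcHD1 went with another supply of Polycomb subunits. None of the 10 members was called in mESCs (0.529% of all tested genes were), at day 7 (3.68%), at day 9 (6.68%) or in NSCs (6.02%). By limma without adjustment, p was under 0.05 for 1 member in mESCs (Ezh2), 0 at day 7, 2 at day 9 (Jarid2 and Bmi1) and 1 in NSCs (Ring1), while this held for 7.66%, 13.9%, 17.3% and 18.1% of all tested genes. The intervals bound what the 3 libraries per group could show: the 95% intervals of all 10 members together reached from -0.45 (Ezh1) to 0.41 (Ezh2) in mESCs, from -0.61 (Ezh1) to 0.73 (Cbx7) at day 7, from -0.49 (Ezh1) to 0.77 (Jarid2) at day 9 and from -0.65 (Cbx7) to 0.42 (Bmi1) in NSCs. Libraries of WT and KO did not overlap for 1 member in mESCs (Ezh2), 2 at day 7 (Ezh1 and Eed), 4 at day 9 (Ezh2, Jarid2, Rnf2 and Bmi1) and 1 in NSCs (Ring1), while this held for 11%, 24%, 32.3% and 16.7% of all tested genes. The shares of members were no higher than these, except by 1 member at day 9.

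**Figure D2:**
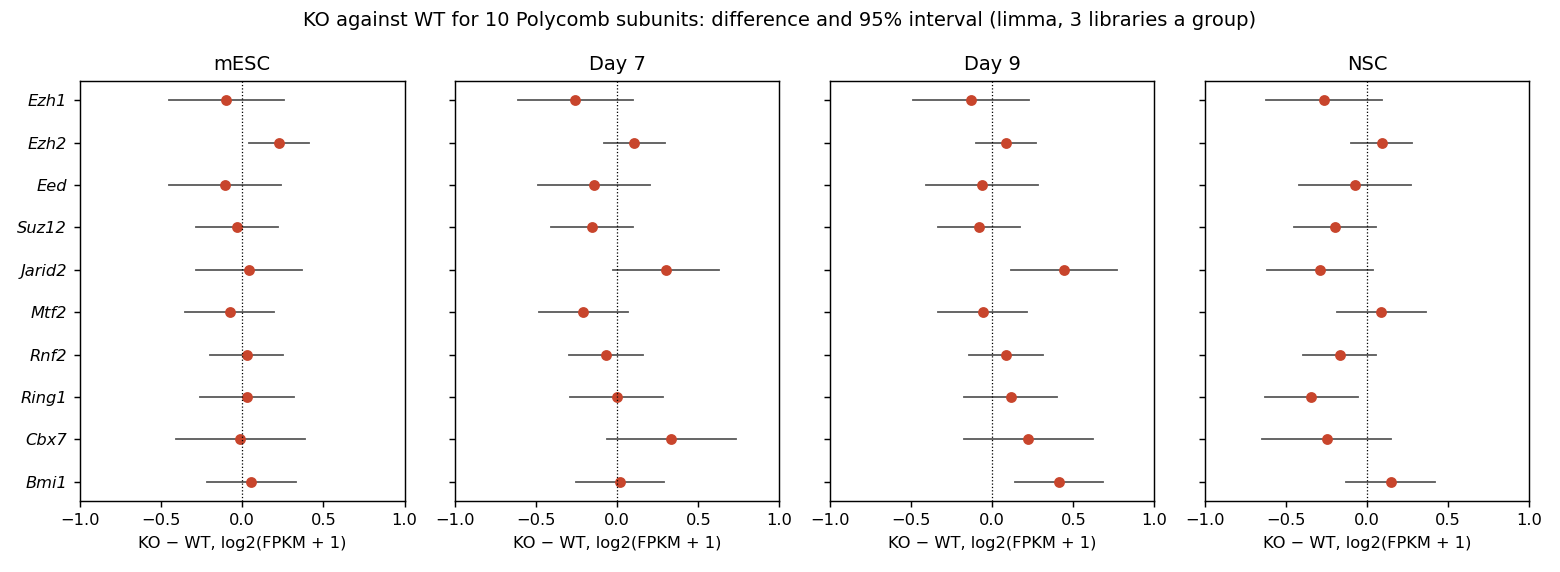
Differences between KO and WT (points, log2(FPKM + 1) units) with 95% intervals from limma for the 10 subunits at each of the 4 stages, 3 libraries a group. Nearly all intervals hold 0 (9, 10, 8 and 9 of 10), and none reaches 1 log2 unit. At day 9 Jarid2 (0.44) and Bmi1 (0.41) lie furthest to the right. The signs of Bmi1 at day 7 and of Ezh2 and Rnf2 at day 9 turned under the scaling to the same sum, and 12 of the 40 differences, none called, changed sign when 1 library was left out.

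Bmi1 and Jarid2 at day 9 came closest to a call. Bmi1 had 21.8, 20.71 and 19.82 FPKM in KO day 9 cells against 15.76, 15.87 and 14.47 in WT, without overlap, and a log2 difference of 0.41 (95% interval 0.14 to 0.69, adjusted p = 0.0659). Jarid2 had 37.28, 31.46 and 40.7 FPKM in KO against 28.46, 25.82 and 25.14 in WT, and a difference of 0.44 (0.11 to 0.77, adjusted p = 0.111). In a fit of the 6 day 9 libraries alone both were called (adjusted p = 0.0104 for Bmi1 and 0.0237 for Jarid2). Markers of other cells differed here too. The 6 pluripotency markers summed to 214 to 302 FPKM in WT and 288 to 426 in KO (0 of 6 were called, limma). Their median difference was 0.38, from 0.25 to 0.47. The 5 endoderm markers summed to 28.2 to 52.2 FPKM in WT and 4.7 to 14.4 in KO, and 5 mesoderm markers to 17.8 to 48.3 and 6.32 to 16.1. Calls are not counted for these lists, since the filter on low values let Sox17 in through WT day 7 and left out Gata4, Gata6, Tbx6 and Mesp1. The 4 neuron markers summed to 494 to 540 FPKM in WT and 265 to 369 in KO (1 of 4 tested was called lower). Of all tested genes, 6.68% were called between KO and WT at day 9. The 6 neural stem markers summed to 1410 to 1716 FPKM in WT and 1663 to 1895 in KO, with overlap, and 2 of 6 were called lower (differences from -1.50 to 0.56). Their part in the difference was not tested.

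At day 7 Ezh1 had 7.514, 6.404 and 7.067 FPKM in KO and 8.169 to 8.946 in WT (-0.26, 95% interval -0.61 to 0.10, adjusted p = 0.59). Jarid2 had 62.43, 59.14 and 50.69 in KO against 60.15, 45.09 and 36.49 in WT, with overlap (0.30, adjusted p = 0.432), and Cbx7 had 30.36, 23.79 and 19.35 against 26.58, 17.7 and 14.38 (0.33, adjusted p = 0.494). In both genotypes the Jarid2 and Cbx7 levels of day 7 were highest in replicate 1 and lowest in replicate 3. The pluripotency markers summed to 1014, 672.8 and 765.1 FPKM in the WT day 7 libraries and 873, 784.9 and 622.1 in the KO ones, and replicate 1 was again the highest. Endoderm markers summed to 61 to 152 FPKM in WT day 7 cells and 1.09 to 4.58 in KO, and mesoderm markers to 61.4 to 161 and 3.64 to 5.43. The filter on low values let Sox17 in through WT day 7 (6.326 FPKM) and left out Gata4, Gata6, Tbx6 and Mesp1. Calls are therefore not counted for these lists. Of all tested genes, 3.68% were called between KO and WT at this stage. Neural stem markers summed to 419 to 474 in WT and 336 to 433 in KO, with overlap (2 of 6 were called lower), and neuron markers to 111 to 151 and 154 to 182, without overlap (0 of 4 were called, limma). Whether these had a part in the member levels was not tested.

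In mESCs Ezh2 had 90.37, 88.48 and 86.82 FPKM in KO against 70.64, 82.04 and 74.69 in WT (0.22, 95% interval 0.04 to 0.41, adjusted p = 0.476). In NSCs Ring1 had 10.51, 12.46 and 10.46 FPKM in KO against 12.65, 15.11 and 15.52 in WT (-0.34, -0.63 to -0.06, adjusted p = 0.17). Without WT NSC replicate 1, 2 members of NSCs were called: Ezh1 was lower in KO (-0.57, adjusted p = 0.00322) and Mtf2 higher (0.31, adjusted p = 0.0493). Ezh1 had 1.57 FPKM in that library and 3.623 and 4.07 in the other WT NSC libraries, against 2.148, 2.391 and 2.243 in KO. Mtf2 had 12.57 in it and 8.18 and 6.979 in the others, against 9.548, 9.551 and 9.71 in KO. With all 3 WT libraries the differences were -0.27 (adjusted p = 0.468) and 0.09 (adjusted p = 0.832). Leaving out that library also turned the sign of Eed, from -0.074 to 0.164, and moved Rnf2 from -0.170 to -0.035 and Ezh2 from 0.089 to 0.182, none of them called either way.

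Whether the KO difference itself changed with stage was tested by interaction. No member passed for day 7, day 9 or NSCs against mESCs, where 1.68%, 2.68% and 2.26% of all tested genes did. Intervals were wide for Cbx7 at day 7 (0.34, 95% interval -0.22 to 0.91) and Jarid2 at day 9 (0.40, -0.06 to 0.86). Among differentiated stages, a comparison added after the values were seen, Jarid2 came closest: its KO difference was 0.44 at day 9 and -0.29 in NSCs, -0.73 apart (95% interval -1.20 to -0.27, adjusted p = 0.0567).

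The balance within pairs of related subunits was expressed per library, with exact two-sided permutation tests. The log2 ratio of Ezh2 to Ezh1 FPKM was 2.78, 3.42 and 3.04 in WT mESCs, 3.67, 3.6 and 3.53 at day 7, 4.01, 3.96 and 3.79 by day 9, and 5.46, 4.04 and 3.84 in NSCs. As linear ratios of the mean logs these were 8.45, 12.1, 15.1 and 21.8 to 1. The last of these rests on WT NSC replicate 1: without it the NSC ratio was 15.3 to 1 (mean log2 3.94), and the other NSC libraries overlapped those of day 9. KO libraries had 3.4, 3.52 and 3.32, then 3.78, 4.22 and 3.98, then 4.04, 4.1 and 4.32, and 5.02, 4.86 and 4.71. The KO means were above the WT means at all 4 stages (by 0.345 on average), without overlap of the libraries at 2 of them. The exact test that relabels libraries within stages gave p = 0.0167, which did not hold after adjustment over 4 such quantities (1 is not reported here; adjusted p = 0.0669). This depended on single libraries. Without WT NSC replicate 1, which lay above every KO NSC library, the difference was 0.472 and passed (exact p = 7.5e-05, adjusted p = 0.0003), without overlap at 3 stages. It also passed without WT mESC replicate 2 (0.387, adjusted p = 0.0315) or KO day 7 replicate 1 (0.372, adjusted p = 0.0495). With any other library left out it did not, and the adjusted p ran from 0.0003 to 0.213 over all 24 permutation tests with 1 library left out. With 3 libraries against 3, single comparisons cannot go below an exact p of 0.1.

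The ratio of Rnf2 to Ring1 changed in a single step. Its log2 was 4.03, 3.38 and 3.98 in WT mESCs, 1.24, 0.883 and 1.1 at day 7, 0.781, 0.817 and 1.08 by day 9, and 1.44, 0.882 and 0.61 in NSCs, so Rnf2 RNA stood at 13.9 to 1 and then near 2 to 1 (2.11, 1.86 and 1.97). Each WT stage was below mESCs without overlap (exact p = 0.1, the smallest possible). KO means were 3.78, 1.01, 0.864 and 1.17, and did not differ from WT beyond the spread (difference 0.021, exact p = 0.829, adjusted p = 0.829).

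For Jarid2 to Mtf2, the accessory subunits of the 2 forms of PRC2, the mean log2 ratio was -0.196 ± 0.243 in WT mESCs and 0.73 ± 0.217 at day 7 (SD, n = 3), without overlap (exact p = 0.1). It was 0.173 ± 0.113 at day 9 and 0.667 ± 0.659 in NSCs, where WT replicate 1 had -0.0933 and the others 1.03 and 1.06. Both of these stages overlapped mESCs (exact p = 0.2 for each). KO libraries had 1.39, 1.2 and 1.15 at day 7 and 0.8, 0.38 and 0.889 at day 9, all above the WT libraries of these stages, but 0.162, 0.442 and 0.17 in NSCs. Over all 4 stages the difference of 0.187 did not pass (exact p = 0.2, adjusted p = 0.4), nor did the 0.092 without WT NSC replicate 1 (exact p = 0.535, adjusted p = 0.714).

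Of the other CBX genes of canonical PRC1, Cbx2 had 17.59 ± 2.79 FPKM in WT mESCs (SD, n = 3), below the 53.43 ± 2.31 of Cbx7. At day 7 and day 9 it had 33.52 ± 1.63 and 30.61 ± 1.90, where Cbx7 had 19.55 ± 6.31 and 5.896 ± 0.14. In WT NSCs Cbx6 had 23.69 ± 4.12, Cbx2 11.61 ± 4.60 and Cbx8 9.023 ± 0.986, against 2.304 ± 0.467 for Cbx7. Before that, Cbx6 had 15.82 ± 1.67 in WT mESCs, 10.29 ± 0.123 at day 7 and 12.7 ± 0.62 by day 9, and Cbx8 had 2.152 ± 0.402, 4.249 ± 0.406 and 6.65 ± 1.52. Cbx8 was called higher than in mESCs at each stage (0.74, 1.27 and 1.67 on the log2 scale, adjusted p = 0.00115, 1.6e-06 and 2.03e-08). Cbx6 is listed together with Npcd and Nptxr, so its value may hold reads of those genes.

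**Figure D3:**
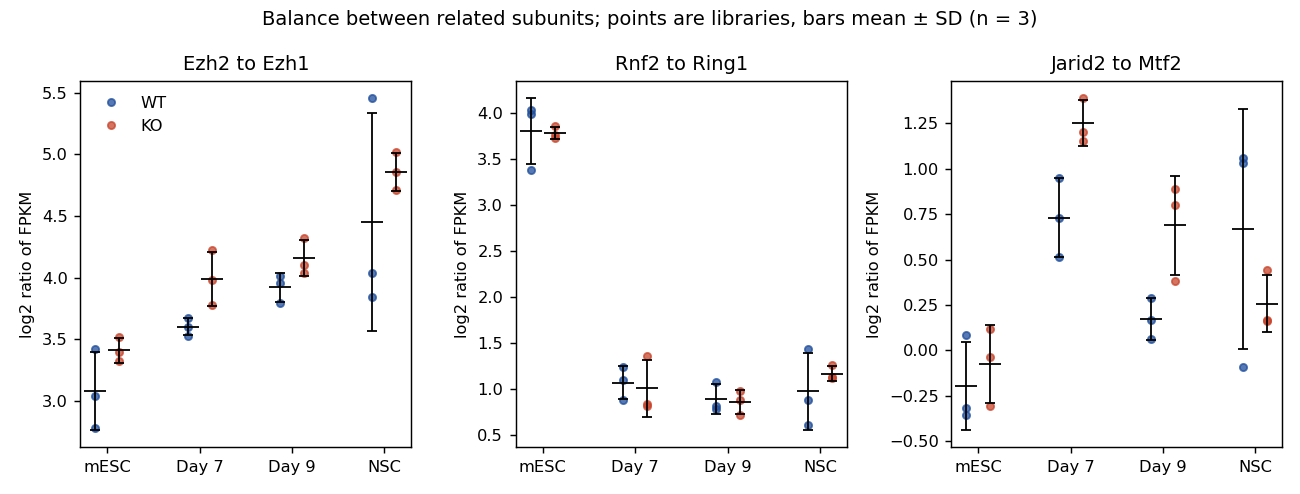
Balance between related subunits in each library (points; WT blue, KO red), with group mean ± SD (bars, n = 3): log2 ratios of FPKM for Ezh2 to Ezh1, Rnf2 to Ring1 and Jarid2 to Mtf2. The WT means of the Ezh2 to Ezh1 ratio were 3.08, 3.6, 3.92 and 4.45, the last one 3.94 without WT NSC replicate 1, and the Rnf2 to Ring1 ratio dropped in a single step from mESCs to day 7 (WT means 3.8 and 1.07).

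Other Polycomb genes came from a list of 43 genes, of which 35 were tested, 6 lie on X or Y and were listed at 0 (among them Rbbp7 and Kdm6a), Asxl3 was too low and Ezhip had no entry. Against WT mESCs, 11 of 35 were called higher and 13 lower at day 7, 17 and 13 by day 9, and 15 and 14 in NSCs, with median differences of -0.11, 0.28 and 0.09. Among all tested genes 29.1% were higher and 30.2% lower at day 7, 36.4% and 35.1% by day 9, and 36.9% and 38.3% in NSCs. E130012A19Rik, the gene of the mESC PRC2 partner EPOP by RefSeq synonym, fell from 578.8 ± 255.5 FPKM in WT mESCs (307.6 to 814.9) to 74.64 ± 10.5 at day 7, 20.44 ± 1.24 at day 9 and 9.113 ± 3.86 in NSCs (-5.80 on the log2 scale, adjusted p = 2.56e-14). Phc2, a polyhomeotic subunit of canonical PRC1, rose from 22.9 ± 2.45 to 86.54 ± 2.70 at day 7 and 102.7 ± 2.89 at day 9 (2.12, adjusted p = 6.71e-14), while its paralogue Phc1 went from 77.3 to 32.67 FPKM. Auts2, a partner of variant PRC1, rose from 3.944 ± 0.943 to 13.39 ± 2.90 FPKM at day 7 (1.54, adjusted p = 5.94e-07) and 15.23 ± 1.68 at day 9 (1.73, adjusted p = 6.03e-08). Pcgf6 and Rybp of variant PRC1 fell in NSCs, from 51.24 to 9.171 FPKM (-2.38, adjusted p = 1.5e-11) and from 58.52 to 10.5 FPKM (-2.38, adjusted p = 5.27e-13). By subset, 7 of the 12 tested variant PRC1 genes were called lower and 3 higher at each WT stage. Of the 9 tested genes of canonical PRC1, 3 were higher and 4 lower at day 7, 5 and 3 by day 9, then 5 and 4 in NSCs. The difference between these subsets was not tested.

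Between KO and WT a single gene of that list was called, Rybp, which links variant PRC1 to ubiquitinated H2A. It had 19.98 to 28.27 FPKM in KO day 7 cells and 31.05 to 35.11 in WT (-0.48 ± 0.13, adjusted p = 0.0492), and 14.96 to 16.71 against 20.15 to 26.73 at day 9 (-0.55 ± 0.13, adjusted p = 0.0123). The libraries of WT and KO did not overlap at either stage. In mESCs and NSCs 0 of 35 were called (limma; 0.529% and 6.02% of all tested genes were, against 3.68% and 6.68% at day 7 and day 9), with median differences of 0.01 and -0.04. Neither call of Rybp was firm: that of day 7 was lost under each alternative for the fit of all libraries (adjusted p from 0.0543 to 0.0656), in a fit of day 7 alone (0.0725) and without WT day 7 replicate 1 (0.133), 2 (0.159) or 3 (0.0779) or KO day 7 replicate 2 (0.129) or 3 (0.297), and that of day 9 without WT day 9 replicate 2 (0.0682) or 3 (0.0858) or KO day 9 replicate 1 (0.0701). E130012A19Rik had 34.5 ± 2.41 FPKM in KO day 9 cells and 20.44 ± 1.24 in WT, without overlap and without a call (0.73, adjusted p = 0.11).

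**Figure D4:**
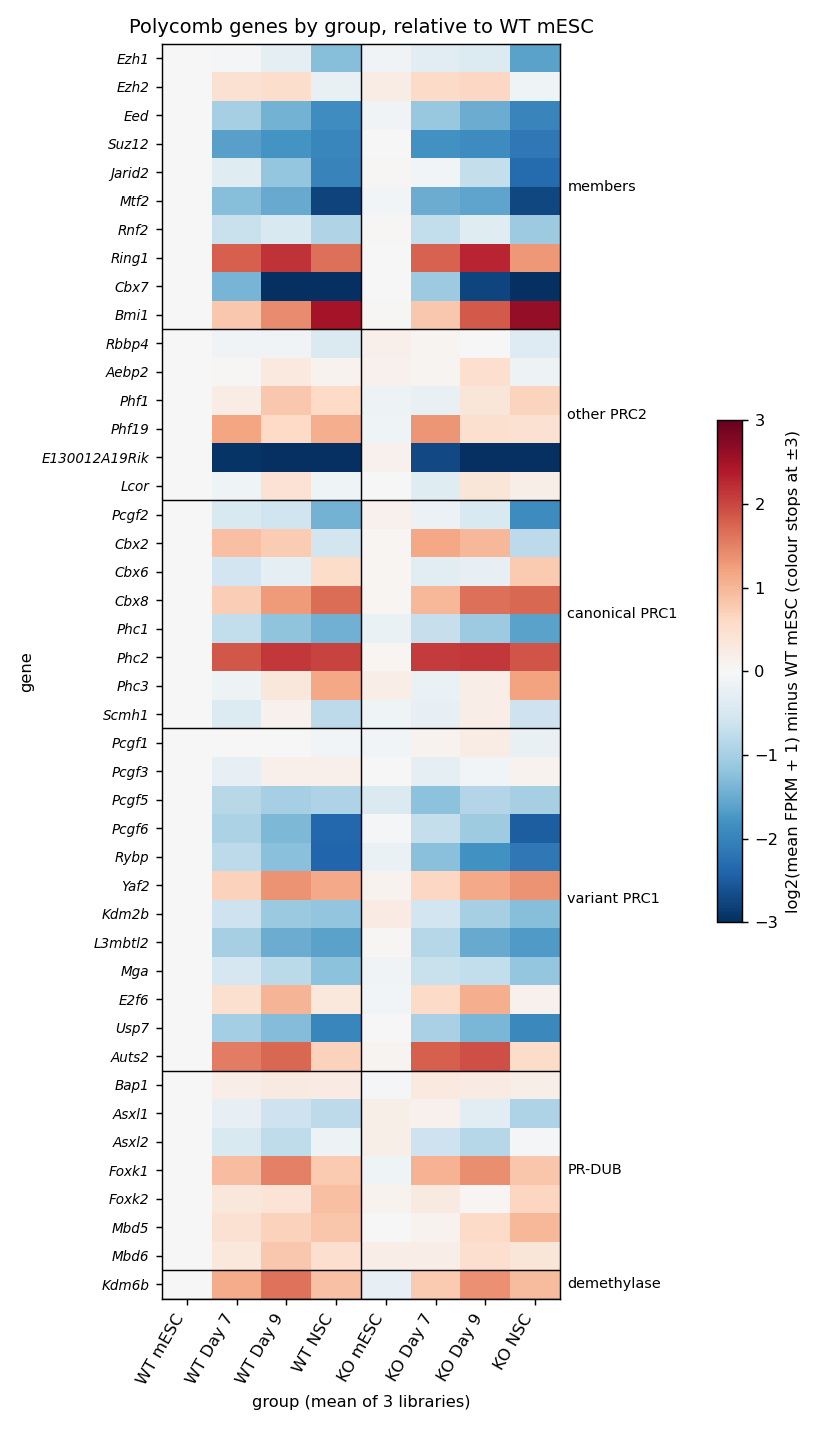
Heat map of group means for the 10 subunits and 34 other tested Polycomb genes (rows), as log2(mean FPKM + 1) minus WT mESCs (red higher, blue lower, colour stopping at 3 log2 units either way), in WT (left) and KO (right) by stage. Cbx7, Mtf2 and E130012A19Rik are deep blue in NSCs, and Bmi1, Ring1 and Phc2 red after mESCs or in NSCs. The KO side resembles the WT side.

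Known Polycomb targets of mESCs were looked up as well: of 26 listed, 17 were tested and 9 were too low. Targets near 0 in mESCs passed the filter only through the groups where they were high, some of them groups of the comparisons between KO and WT. No count of calls is therefore given, against WT mESCs or between KO and WT. The called differences from WT mESCs were led by Foxa2 and Pax6 at day 7 and day 9 (Foxa2 0.0355 to 29.6 and 36.86 FPKM, Pax6 0.117 to 14.92 and 36.82), and by Olig2 (3.372 to 337.5 FPKM) and Pax6 (22.23 FPKM) in NSCs. Between KO and WT only the called targets with the largest difference at each stage are named. In KO mESCs Cdx2 (19.2 ± 6.70 against 7.042 ± 1.65 FPKM) and Hoxa9 (9.756 ± 4.85 against 2.8 ± 1.73, with overlap) were higher. Hoxa9 passed the filter only through KO mESCs, the group in which it was called higher. Both mESC calls were lost with a pseudocount of 0.1 (adjusted p = 0.255 for Cdx2 and 0.25 for Hoxa9) and in a fit of the mESC libraries alone (0.3 and 0.712), and that of Hoxa9 also without WT mESC replicate 2 (0.0596) or 3 (0.0531) or KO mESC replicate 1 (0.104) or 3 (0.132). At day 7 the primitive streak gene T (1.591 against 102.5 FPKM) and Foxa2 (0.726 against 29.6) were lower in KO. At day 9 the motor neuron gene Isl1 was lower (1.266 against 29.32) and the dorsal neural gene Zic1 higher (39.46 against 2.383). Isl1 passed the filter only through WT day 9, so its call rests on the group that let it in.

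Cdkn2a, a target known from work on Bmi1, rose in KO NSCs. It had 151.8 to 247.9 FPKM in KO NSCs and 44.68 to 54.84 in WT NSCs (1.94 ± 0.27, adjusted p = 7.51e-05, and 2.03, adjusted p = 0.000145, without WT NSC replicate 1), beside Bmi1 levels of 34.16 to 39.64 and 29.89 to 36.52 FPKM in the same libraries. In mESCs it had 49.47 ± 15.2 FPKM in WT and 53.31 ± 8.73 in KO, with Cbx7 above 48 FPKM in every library. It was near its lowest at day 9, at 2.014 ± 0.596 and 1.772 ± 1.25. The other target called with it by the naming rule in NSCs was Zic1 (16.27 ± 0.295 against 2.733 ± 0.874 FPKM, a difference of 2.23, adjusted p = 7.16e-06). Without WT NSC replicate 1 the difference of Zic1 was 2.42 (adjusted p = 3.46e-06), and its call was lost with a replicate block in a fit of the NSC libraries alone (adjusted p = 0.0546). Cell markers differed between these libraries too: the 6 neural stem markers summed to 4172 to 5026 FPKM in KO NSCs and 5650 to 7231 in WT (2 of 6 were called lower), the 5 endoderm markers to 1.59 to 4 and 0 to 0.176 (0 of 3 tested were called, limma), and the 6 pluripotency markers to 2.44 to 3.3 and 1.92 to 6.61 (1 of 6 was called higher). Their part in these differences was not tested.

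Genes of dividing cells were followed beside Ezh2. The 10 proliferation genes summed to 1760 to 2128 FPKM in WT mESCs, 1527 to 1633 at day 7, 1395 to 1462 at day 9 and 848 to 1636 in NSCs, and 0 of 10 were called between KO and WT at any stage (limma). These sums are not scaled for the fall of summed FPKM with differentiation. The part of cell division in the member levels was not tested.

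Over the 8 group means of log2(FPKM + 1), which share libraries and scaling with the members, the tested genes most like each member were Gtf2e2 and Tmsb10 for Ezh1 (Pearson r 0.998 and 0.995), Ncapd2 and Sdc1 for Ezh2 (0.993 and 0.989), Slc39a4 and Rpl39l for Eed (0.999 and 0.998), and Pole4 and Pigp for Suz12 (0.998 and 0.998). They were Sdad1 and Pm20d1 for Jarid2 (0.998 and 0.997), Nrbf2 and Gprc5a for Mtf2 (0.999 and 0.997), Idh2 and Cog2 for Rnf2 (0.988 and 0.982), and Azi1 and Sox11 for Ring1 (0.997 and 0.997). For Cbx7 they were Got1 and Ptges3 (0.998 and 0.998), and for Bmi1 Mfsd8 and Slc25a23 (0.997 and 0.995). Each is among the highest r of 12105 tested genes over only 8 values, so a high r is partly owed to that choice. Among the members themselves, Cbx7 and Bmi1 ran most nearly opposite (r = -0.986).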

How the data were processed

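The authors made stranded poly(A) libraries, trimmed single-end reads with Trim Galore 0.6.6, aligned them to mm9 with TopHat2 2.1.1, removed ribosomal and X-linked reads and quantified genes with Cuffdiff. What they deposited is 1 FPKM value for each gene in each library. Read totals were not used here. Library normalization and counting by strand are not given in the sources used here. Of 36 FPKM columns, 24 were used and 12, of other samples, were not.

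All 8 groups were fitted together with limma 3.58.1 (R 4.3.3; eBayes with trend and robust) on log2(FPKM + 1), without a replicate block, over 12105 genes outside X and Y with a mean FPKM of at least 1 and no failed estimate. Calls are at a Benjamini-Hochberg adjusted p under 0.05, and fold sizes are on that scale, which understates low genes. The fit was also run on simulated data, with an outcome that is not given here. Ratios used 0.1 as pseudocount and exact permutation; a further quantity of that kind and 1 gene are not reported here. Depth was used only in relative terms. The members and lists were chosen with earlier results of these data known. Named were Smchd1, the 10 members, the 3 other Polycomb genes and 2 targets called with the largest difference in each KO against WT and WT stage against mESC comparison, and the 2 genes most like each member. Same-numbered WT and KO libraries deviated together in mESCs (r = 0.289, 0.435 and 0.141) and NSCs (0.335, 0.184 and 0.24), but not in the other comparisons, where at least 1 pair of each was at 0.1 or below. Alternatives were another pseudocount, no filter, scaling to the same sum, the compared groups only, a replicate block and leaving out each library.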

Additional observations from a re-analysis of the deposited data

Results flagged for a closer look

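No member had a KO difference that changed between stages by the interaction test. Among the other genes named, Rybp did, though only between differentiated stages, a comparison added after the values were seen. Its KO difference in NSCs was 0.71 above that at day 7 (adjusted p = 0.0327) and 0.78 above that at day 9 (adjusted p = 0.015). Of 12105 tested genes, 611 and 707 passed there. Rybp did not pass for any stage against mESCs. It was named for its calls between KO and WT at day 7 and day 9, neither of them firm.

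The Polycomb targets below were named for a large KO difference at some stage of these libraries. Whether that difference changed between stages was thus largely decided by the choice. Of 12105 tested genes, 203, 324 and 274 passed for day 7, day 9 and NSCs against mESCs. For day 9 against day 7, and NSCs against day 7 and day 9, it was 221, 611 and 707. Among these targets, Cdkn2a had a KO difference in NSCs that was 1.81, 2.42 and 2.13 above those in mESCs, at day 7 and at day 9 (adjusted p = 0.0129, 0.000533 and 0.00116). The KO difference of T was -5.85 at day 7 and -2.39 at day 9 relative to mESCs, and 3.46 at day 9 and 4.92 in NSCs relative to day 7. That of Foxa2 was -4.05 at day 7 and -2.80 at day 9 relative to mESCs, and in NSCs 5.34 and 4.10 above day 7 and day 9. That of Cdx2 was -3.63, -1.47 and -1.30 at day 7, at day 9 and in NSCs relative to mESCs, and 2.16 and 2.33 at day 9 and in NSCs relative to day 7. Cdx2 was listed at 0 in every NSC library and was below 0.5 FPKM in every day 9 library, so its values there largely restate the KO difference of mESCs or day 7 with the sign turned. For Hoxa9, which passed the filter only through KO mESCs, it was -1.67 at day 7 and -1.74 at day 9 relative to mESCs. Its libraries were at 0 or near 0 in both genotypes after mESCs, so that these values too restate the mESC difference. The mESC calls of Cdx2 and Hoxa9 were lost with a pseudocount of 0.1 (adjusted p = 0.255 and 0.25) and in a fit of the mESC libraries alone (0.3 and 0.712). For Isl1, which passed the filter only through WT day 9, the KO difference was -3.73 and -3.65 at day 9 relative to mESCs and day 7. It was 3.88 in NSCs relative to day 9, so each value rests on that group. For Zic1 it was 3.49 at day 9 and 2.20 in NSCs relative to mESCs, 2.96 and 1.67 relative to day 7, and -1.30 in NSCs relative to day 9. Foxa2, Isl1 and Zic1 were at or near 0 in the mESCs of both genotypes, and T and Isl1 in NSCs, so values relative to those stages are nearly the KO difference of the other stage. Each of these passed at an adjusted p under 0.05, the differences between differentiated stages being a comparison added after the values were seen.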

How the results depend on the processing

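Of 170 pairs of a member and a comparison, 82 were called. With a pseudocount of 0.1 all kept their direction and side of the threshold, and without the filter 1 call was lost (Jarid2, WT day 7 against mESCs). With libraries scaled to the same sum of FPKM, 5 calls were lost (that of Ezh2 in KO NSCs with its sign turned), 1 was gained and 12 signs turned: Ezh2 in NSCs against mESCs to 0.22 in WT and 0.15 in KO, Ezh1 in WT to 0.16 at day 7 and 0.06 at day 9, Jarid2 at KO day 7 against KO mESCs to 0.10, the KO difference of Bmi1 at day 7 to -0.01 and of Ezh2 and Rnf2 at day 9 to -0.023 and -0.023, and the day 9 interactions of Eed, Mtf2, Rnf2 and Ring1 to -0.045, -0.072, -0.034 and -0.006. Only Ezh2 in NSCs was called among these. In fits of the compared groups only, 10 calls changed. Lost were Jarid2 in WT day 7 (adjusted p = 0.124) and Ezh2 in WT NSCs (0.183) against mESCs and Eed in WT NSCs against day 9 (0.13). Gained were Jarid2 (0.0237) and Bmi1 (0.0104) in KO against WT at day 9, which makes 2 in place of 0, Eed (0.012) and Rnf2 (0.0289) in WT day 9 against day 7, Ezh1 (0.0331) and Eed (0.00531) in KO day 9 against KO mESCs and KO day 7, and Suz12 (0.0393) in KO NSCs against KO day 9. With a replicate block added to such fits, chosen after seeing the data, 8 calls changed (3 lost, 5 gained), and day 9 again called 2. The cause was not tested.

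The replicate block in the fit of all libraries changed 1 call (Suz12, KO NSCs against KO day 9, gained, adjusted p = 0.0315). Members called for KO against WT in NSCs were 0 to 2 with 1 library left out. The sign of the KO difference turned without some library for 12 of 40 pairs of member and stage, all uncalled and at most 0.156 in size with all libraries. Leaving out 1 library gave KO differences of 0.27 to 0.472 for the log2 ratio of Ezh2 to Ezh1 (0.345 with all; unadjusted exact p from 7.5e-05, without WT NSC replicate 1, to 0.0556, above 0.05 without WT NSC replicate 2 or 3 or KO NSC replicate 1) and -0.031 to 0.078 for the log2 ratio of Rnf2 to Ring1. Sign permutation of same-numbered pairs (replicate block) gave exact p = 0.0117 for Ezh2 to Ezh1 and 0.828 and 0.227 for Rnf2 to Ring1 and the log2 ratio of Jarid2 to Mtf2.

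Over all tested genes, KO against WT in mESCs called 64, but 164 without the filter, 42 when scaled, 1 in a fit of these groups only and 6 with the block added to it. Without 1 library it called 20 to 112 (20 without KO replicate 3, 34 without WT 3, 38 without KO 2, 42 without WT 1 and 112 without WT 2). Day 7 called 446, and 273 to 521 without 1 library (273 without WT 2, 280 without WT 3 and 294 without KO 3). Day 9 called 809, but 1221 without the filter and 1377 in its own fit, and 449 to 752 without 1 library (449 without WT 2, 474 without KO 1 and 494 without WT 3). NSCs called 729, but 58 in their own fit, 12 with the block added, and 406 to 1352 without 1 library (406 without KO 3, 485 without KO 2 and 1352 without WT 1). The day 9 interaction called 324, but 165 with a pseudocount of 0.1 and 537 without the filter, and the NSC interaction 274, but 57 and 34 in its own fit without and with the block. Scaling moved the share of higher calls from 38.6% to 22.7% in KO against WT at day 9, from 42.2% to 54.4% in NSCs, and from 49.1%, 50.9% and 49.1% to 66.3%, 69.1% and 66.2% in WT day 7, day 9 and NSCs against mESCs. It also moved it from 54.6% to 72.2% between WT day 7 and day 9, from 48.1%, 50.1% and 49.7% to 63.3%, 64% and 68.3% in the KO stages against KO mESCs, from 45.6% to 61.6% in KO NSCs against KO day 9, and from 49.4% to 36.4% and 50.4% to 61.7% in the day 9 and NSC interactions. Read totals were not used here, so no counting error is given for low members such as Cbx7 in NSCs.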
